A study of Mus musculus with 4 samples.

Results

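The genes described here are the EGR transcription factors *Egr1*, *Egr2* (known as *Krox20*) and *Egr3* and the corepressors *Nab1* and *Nab2*, 5 of the 32286 features counted by spatial transcriptomics in mouse dorsal skin. They were taken by symbol from the feature tables, and all 5 were found. Skin was taken at P38 from 3 mice with the genotype *Krox20-CreERT; R26-tdTomato*, which had received 4-hydroxytamoxifen at P2. There was no other genotype, treatment or age. *CreERT* was inserted at the *Krox20* locus behind a P2A peptide, so every animal carried this allele, and *CreERT* itself was not analysed here. Each of the 4 slices held a section of each mouse, which makes the slices technical replicates. The study left a distorted section out of its own analysis, and whether that section is among the deposited spots, which carry no label of mouse or section, is not known here. Errors and p-values therefore measure the spread between slices of the same 3 mice and not the spread between mice.

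EGR proteins are zinc finger transcription factors whose genes are switched on within minutes of a growth signal, through serum response factor and the ERK kinases, which places them among the immediate-early genes. They bind GC-rich DNA. NAB1 and NAB2 do not bind DNA themselves but attach to EGR proteins and bring in the NuRD chromatin remodelling complex, which contains CHD4. NAB genes are also targets of EGR proteins in several cell types, so that the pair can limit its own activators. In Schwann cells EGR2 drives myelination together with NAB proteins, and in skin *Krox20* marks cells of the hair follicle (HF).

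RefSeq start-site sequences (GRCm38.p6) were matched for *Egr2*, *Nab1* and *Nab2*, 3 of the 5 genes. They are shown because the question of a shared pattern starts with the inputs these genes could share. The EGR motifs GCGTGGGCG and GCGGGGGCG, the CArG box bound by serum response factor, the cyclic AMP response element TGACGTCA and its core TGACG, which it contains, were searched on both strands in the 250 bases before each start. Among all 32851 start sites, the windows held them in 0.536%, 2.57%, 1.47%, 1.55% and 17.8% of cases. *Nab1* had GCGTGGGCG on each strand, 109 to 101 and 141 to 133 bases upstream, and TGACG on the reverse strand. Of 5 start sites listed for *Egr2*, the first, at 67535499, had none of the motifs and the other 4 had a CArG box. At 67537869, the start shown, it lay 72 to 63 bases upstream, with TGACG on both strands near it. GCGGGGGCG was also found upstream of *Nab1*, 38 to 30 bases before the start. None of these motifs was found in the window of *Nab2*. Capitals mark the motif in each line, and a match is a description of the letters and not evidence of binding.
*Egr2*, CArG box, chr10:67537787-67537816, plus strand: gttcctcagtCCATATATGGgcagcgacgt
*Egr2*, TGACG on the reverse strand, chr10:67537801-67537830, plus strand: atatgggcagcgaCGTCAcgggtattgaag
*Nab1*, GCGTGGGCG on the reverse strand, chr1:52500571-52500600, minus strand: cgccccgcggcCGCCCACGCcgggatctgc
*Nab1*, GCGTGGGCG, chr1:52500539-52500568, minus strand: cactcggccgcGCGTGGGCGggagccggag

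Each slice was a Visium capture area, on which RNA from the section binds to barcoded spots, so that counts of unique molecular identifiers (UMIs) keep their position. Slices held between 19393026 and 26910422 UMIs, and 6411 of 6420 spots had at least 250 detected genes and were kept, with a median of 12618 UMIs. Because each spot covers more than a single cell, its counts can mix cell types, and in such sums fewer cells of a type and less RNA per cell cannot be told apart. Spots were given a region by lists of marker genes that contained no EGR or NAB gene. The lists marked the interfollicular epidermis (IFE, 542 spots), the upper HF (344), sebaceous gland (168), outer root sheath (656), matrix (463), inner root sheath (600), hair shaft (702), dermis (251), adipose tissue (296) and muscle (954). A further 1435 spots had no clear leader, and 1179 spots lay within 0.1 of the margin required. All 7 upper HF markers and 7 of 8 IFE markers had their highest mean level in their own region, which the lists themselves set. Slice 1 gave 46.9% of hair shaft spots and 10.4% of outer root sheath spots, so that these regions were unevenly drawn from the slices.

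The *Egr2* gene (ENSMUSG00000037868, chromosome 10, 67535475 to 67542188, plus strand, GRCm38) had 3057 UMIs, and a UMI was found in 33.4% of spots. The chromosome 18 gene *Egr1* (ENSMUSG00000038418, 34859823 to 34864984, plus strand) had 11893 UMIs, and *Egr3* (ENSMUSG00000033730, chromosome 14, 70077203 to 70082614, plus strand) had 15120. For *Nab1* (ENSMUSG00000002881, chromosome 1, 52457294 to 52500679, minus strand) 4652 UMIs were counted. For *Nab2* (ENSMUSG00000025402, chromosome 10, 127660918 to 127668568, minus strand) 4128 UMIs were counted. The remaining family member *Egr4* had 1 UMI in all slices together. The 3′ end of *Nab2* overlaps that of *Stat6*, which ends at 127660957 on the opposite strand, the antisense gene *Gm16229* lies inside *Nab2*, and *Nemp1* starts inside it at 127666901 on the opposite strand. Whether strand was used in counting is not given in the sources used here, so reads of the overlap cannot be assigned with certainty.

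Across the 10 regions, the genes fell into different patterns. Levels are UMIs of a gene per 1000000 UMIs of the same spots (CPM), and are compared between regions for each gene by itself. *Egr2* varied most, with a mean in upper HF spots 6.66 times that in muscle spots. The highest over the lowest regional mean was 4.34 for *Egr1*, 2.21 for *Egr3*, 2.47 for *Nab2* and 1.59 for *Nab1*. Each of the 5 genes differed among regions in a joint test (edgeR quasi-likelihood, highest Benjamini-Hochberg adjusted p = 6.9e-04, for *Nab1*), as did 90.0% of the 11363 genes tested.

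**Figure D1:**
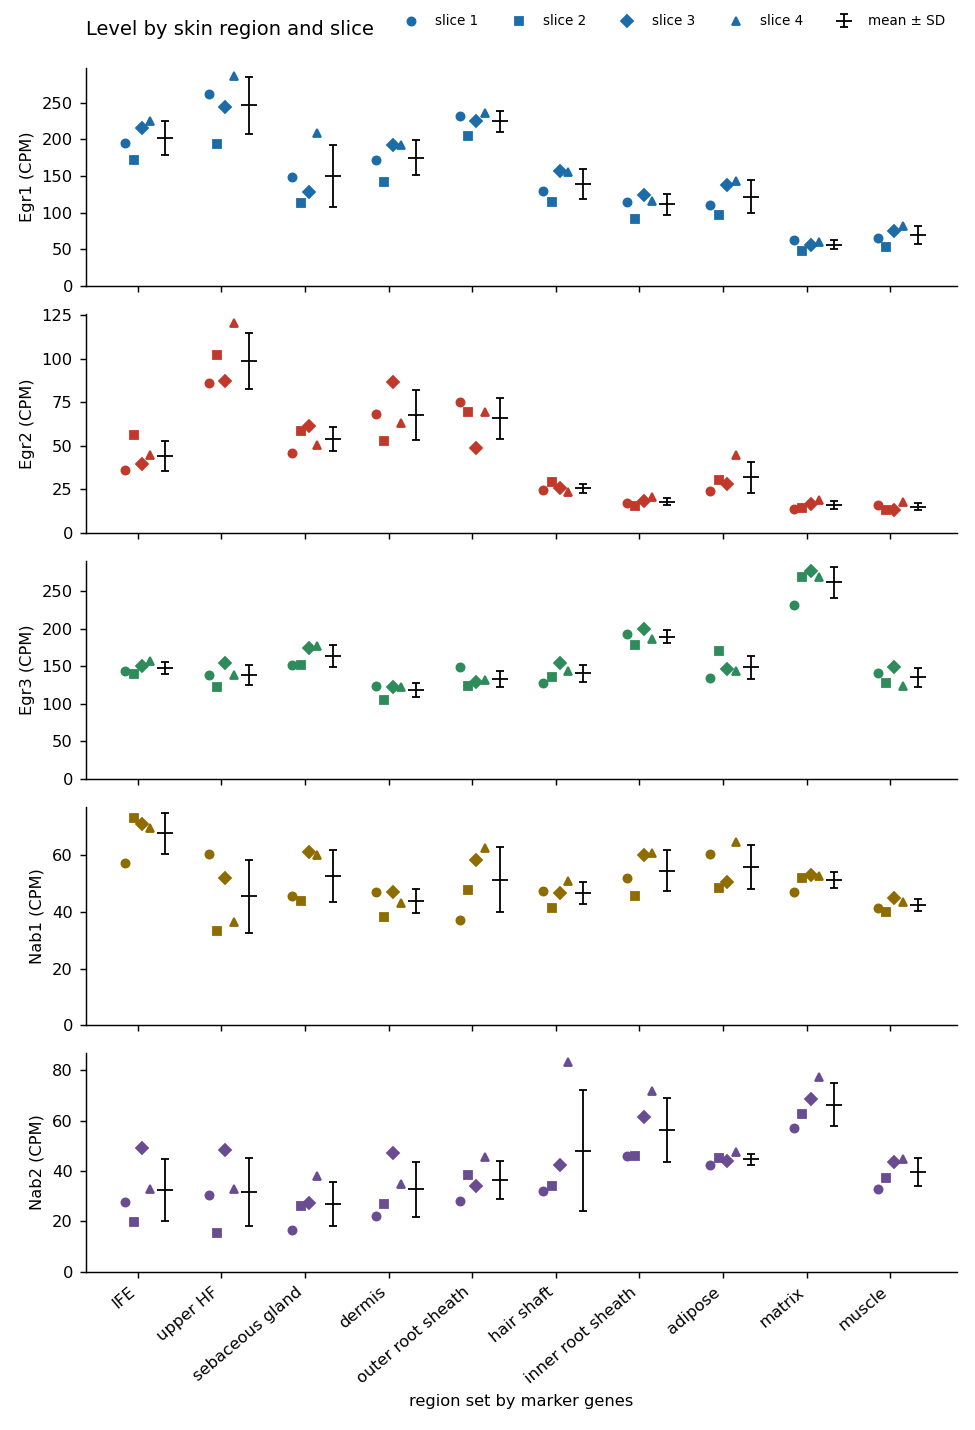
Level of each gene (CPM, vertical axis from 0) in the 10 regions set by marker genes, with a symbol for each of the 4 slices and the mean ± SD in black. *Egr1* and *Egr2* are high in upper HF and outer root sheath spots and low in matrix and muscle spots, whereas *Egr3* and *Nab2* are highest in matrix spots and *Nab1* has a narrow range.

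*Egr2* levels in upper HF spots were 85.9, 102.5, 87.1 and 120.4 CPM in slices 1 to 4 (mean 99.0 ± 16.2, SD, n = 4 slices). In IFE spots they were 35.8, 56.0, 39.7 and 44.9 CPM (44.1 ± 8.76), and every upper HF value lay above every IFE value. Dermis spots (67.7 ± 14.2) and outer root sheath spots (65.8 ± 11.6) came next in the order and did not differ beyond their spread. Sebaceous gland spots followed at 53.9 ± 7.11 CPM, above IFE spots in 4 of 4 slices. Adipose (31.8 ± 9.10), hair shaft (25.5 ± 2.59) and inner root sheath spots (17.9 ± 2.10) were lower. Matrix spots (15.8 ± 2.40) and muscle spots (14.9 ± 2.14) formed the lower end and did not differ beyond their spread. Muscle is given as the lowest region, not as a region known to lack *Egr2*.

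*Egr1*, the paralog best known as a general growth response gene, had an order of regions close to that of *Egr2* but a flatter top. Its levels in upper HF spots were 261.7, 193.9, 244.6 and 285.9 CPM (247 ± 39.0). Outer root sheath spots gave 225 ± 14.5 CPM and IFE spots 202 ± 23.5, and the upper HF and outer root sheath levels did not differ beyond their spread. Muscle spots (69.3 ± 12.4) and matrix spots (56.8 ± 6.34) were lowest, in all 4 slices.

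*Egr3*, which is induced by the same signals in many tissues, ran the other way. Matrix spots, which hold the dividing cells of the hair bulb, had 231.7, 268.4, 276.8 and 269.1 CPM (262 ± 20.3), and inner root sheath spots had 189 ± 9.05. The matrix level exceeded the inner root sheath level, and that level the sebaceous gland level (164 ± 14.0), in 4 of 4 slices. From adipose (148 ± 15.1) to outer root sheath spots (133 ± 10.7), 6 regions followed each other without a step beyond the spread, upper HF spots (138 ± 13.0) among them. Dermis spots had the lowest level, 119 ± 8.83 CPM.

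Of the corepressors, *Nab1* was highest in IFE spots, with 57.1, 73.0, 71.0 and 69.6 CPM (67.7 ± 7.18). Levels in upper HF spots were 60.3, 33.3, 51.9 and 36.5 CPM (45.5 ± 12.8), so that slice 1 overlapped the IFE range and the other slices did not. No neighbours in the order of the *Nab1* regions differed beyond their spread. *Nab2* was highest in matrix spots, with 57.0, 62.8, 68.6 and 77.3 CPM (66.4 ± 8.69), followed by inner root sheath spots (56.3 ± 12.6). Hair shaft spots had 31.9, 34.3, 42.5 and 83.4 CPM, a wide range set by slice 4. In upper HF spots *Nab2* was at 30.6, 15.2, 48.2 and 32.9 CPM (31.7 ± 13.5), which overlapped its IFE range of 19.9 to 49.1, with slice 2 below it. Of the overlapping genes, *Stat6* had 28.4 ± 2.41 CPM in matrix spots and 41.3 ± 9.48 in upper HF spots. *Nemp1* and *Gm16229* had their highest levels in matrix spots, as *Nab2* did, with 12.3 ± 2.00 and 2.12 ± 0.72 CPM against 7.96 ± 4.30 and no UMI in upper HF spots. Their part in the *Nab2* level was not tested.

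To ask whether the paralogs and corepressors changed where *Egr2* changed, UMI sums per slice and region were compared by edgeR's quasi-likelihood test, with Benjamini-Hochberg adjustment over all genes tested. Between upper HF and IFE spots 15.0% of genes were called (6.93% higher and 8.09% lower in upper HF spots), and of the 5 genes *Egr2* and *Nab1* were, in opposite directions. *Egr2* was higher in upper HF spots by a log2 fold change of 1.18 ± 0.15 (SE, edgeR adjusted p = 4.1e-08), a 2.27-fold difference. *Nab1* was lower by a log2 fold change of -0.55 ± 0.15 (edgeR adjusted p = 0.0072), and this call was lost without slice 2 (-0.37, adjusted p = 0.19) or slice 4 (-0.40, adjusted p = 0.16), and at 5500 UMIs per spot (-0.54, adjusted p = 0.084). Without slice 1 the *Nab1* value was -0.86. *Egr1* had a value of 0.28 ± 0.12 (edgeR adjusted p = 0.13), which was called when the slice was a block (0.29, adjusted p = 0.0092), and it was higher in upper HF spots in 4 of 4 slices. *Egr3* (-0.11 ± 0.10, edgeR adjusted p = 0.55) and *Nab2* (-0.05 ± 0.27, adjusted p = 0.95) were not called.

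Against outer root sheath spots, where 22.1% of genes were called (12.6% higher and 9.54% lower), *Egr2* was the only gene of the 5 that passed, higher in upper HF spots by 0.66 ± 0.14 on the log2 scale (edgeR adjusted p = 2.2e-04). The adjusted p-values of the other genes lay between 0.33 and 0.57. Against sebaceous gland spots, where 7.59% of genes were called (3.78% higher and 3.8% lower), *Egr1* (0.79 ± 0.14, edgeR adjusted p = 6.3e-05) and *Egr2* (0.94 ± 0.19, adjusted p = 2.8e-04) were both higher in upper HF spots. At 5500 UMIs per spot the *Egr2* value was 0.74 and not called (adjusted p = 0.10). Against muscle spots, where 51.3% of genes were called (24.6% higher and 26.6% lower), *Egr2* was 6.45-fold and *Egr1* 3.43-fold higher in upper HF spots (log2 2.69 ± 0.16 and 1.78 ± 0.12, edgeR adjusted p = 3.3e-20 and 3.9e-17). Between IFE and muscle spots, where 54.4% of genes were called (26.6% higher and 27.7% lower), *Egr1* (log2 1.50 ± 0.12), *Egr2* (1.51 ± 0.17) and *Nab1* (0.60 ± 0.12) were higher in IFE spots (highest edgeR adjusted p = 3.9e-05).

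Matrix spots were compared with upper HF spots after the levels had been seen, and 65.5% of genes were called (34.4% higher and 31.1% lower in upper HF spots). Here the genes split into opposite groups. *Egr2* (log2 2.72 ± 0.16, edgeR adjusted p = 3.0e-20) and *Egr1* (2.18 ± 0.13, adjusted p = 4.2e-20) were higher in upper HF spots. *Egr3* (-0.86 ± 0.09, edgeR adjusted p = 4.2e-11) and *Nab2* (-1.04 ± 0.22, adjusted p = 6.7e-05) were lower, and *Nab1* was not called (-0.09 ± 0.14, adjusted p = 0.59). Without slice 1 (-0.38, edgeR adjusted p = 0.043) and with a wider score margin (-0.39, adjusted p = 0.047) *Nab1* was called lower. Upper HF values lay below matrix values in 4 of 4 slices for *Egr3* and *Nab2*.

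A difference between *Egr2* and a partner was tested directly, as the log2 ratio of *Egr2* between regions minus that of the partner within each slice. This difference does not depend on how libraries are scaled. Between upper HF and IFE spots it was 0.90 ± 0.16 against *Egr1*, with 0.84, 0.71, 0.96 and 1.08 in slices 1 to 4. It was 1.27 ± 0.25 against *Egr3*, 1.78 ± 0.51 against *Nab1* and 1.24 ± 0.14 against *Nab2*, above 0 in 4 of 4 slices each time. Exact two-sided sign-flip permutation tests gave p = 0.125 for each, the smallest value that 4 slices allow, so the 0.05 level could not be reached. Over the 20 differences computed, which share upper HF or step 1 spots within each set, the adjusted exact p was 0.13 for all but 1.

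Between upper HF and outer root sheath spots the differences were smaller, 0.47 ± 0.31 against *Egr1* and 0.55 ± 0.18 against *Egr3*. Those against *Nab1* (0.79 ± 0.90) and *Nab2* (0.89 ± 0.85) had SDs close to their size, and against *Nab1* slice 1 had the opposite sign (-0.51, exact permutation p = 0.25). Slice 1 had the fewest outer root sheath spots, 68 against 183 to 205 in the other slices. Against muscle spots the *Egr2* excess was 0.90 ± 0.30 over *Egr1*, and 2.70 ± 0.23, 2.68 ± 0.58 and 3.16 ± 0.79 over *Egr3*, *Nab1* and *Nab2*. Against matrix spots it was 0.53 ± 0.25 over *Egr1* and 3.57 ± 0.33 over *Egr3*. Of the 4 partners, *Egr1* thus had the smallest mean difference from *Egr2* in each of the 5 comparisons, but not in each slice. Against outer root sheath spots the difference from *Egr3* was smaller in slices 2 and 3 (0.59 and 0.58, against 0.63 and 0.72 from *Egr1*). The same held between steps 1 and 4 (0.81 and 1.03, against 1.03 and 1.09). In slice 3 a corepressor was also closer than *Egr1*, *Nab2* against outer root sheath spots (0.34) and *Nab1* between steps 1 and 4 (0.84).

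**Figure D2:**
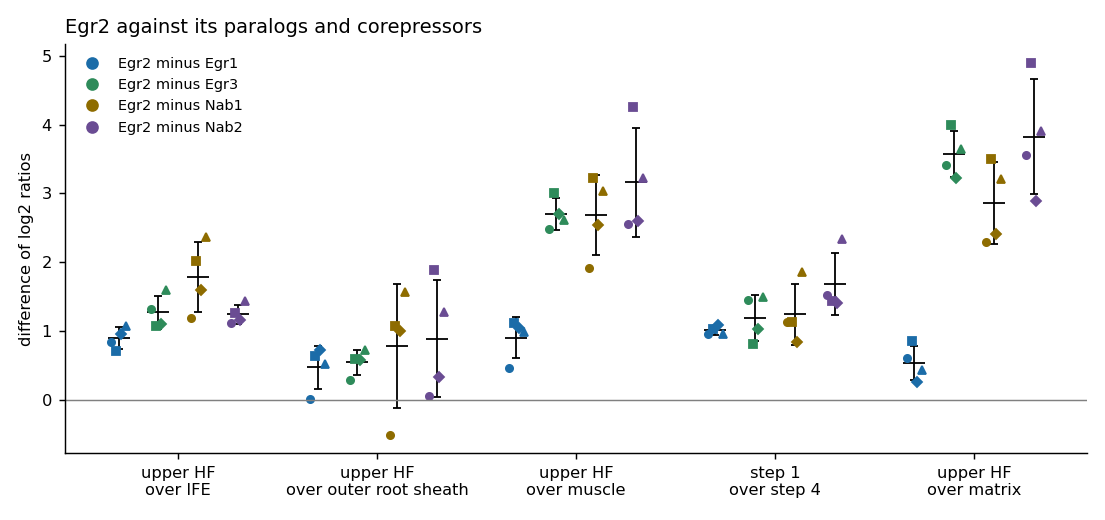
Log2 ratio of *Egr2* between the regions or steps named on the horizontal axis, minus that of each partner (vertical axis), with a symbol for each of the 4 slices and the mean ± SD in black. A value of 0 means that both genes changed alike. All values are above 0 except *Egr2* minus *Nab1* between upper HF and outer root sheath spots in slice 1.

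Position was also measured without the names of the other regions, as the number of spot-to-spot steps from the nearest spot named IFE, so that step 0 is the IFE region itself. Upper HF spots made up 32.8% of spots at step 1, outer root sheath spots 37.2% at step 3, hair shaft spots 29.9% at step 5 and muscle spots 56.1% at step 8. At step 2, 25.1% were outer root sheath, 14.8% dermis and 9.4% upper HF spots, and 33.6% had no region. Each of the 5 genes differed among steps 0 to 8 in a joint test (edgeR, highest Benjamini-Hochberg adjusted p = 8.3e-05, for *Nab1*), as did 80.7% of genes. *Egr2* went from 44.1 ± 8.76 CPM at step 0 to 65.9 ± 11.3 at step 1 and 86.0 ± 11.4 at step 2. By slice the step 2 levels were 77.6, 89.0, 76.7 and 100.8 CPM, above every value at step 3 (44.8 to 64.1) and at step 0. The level was 50.4 ± 9.16 CPM at step 3, 29.0 ± 4.91 at step 4 and 13.9 ± 3.12 at step 8.

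*Egr1* had no such peak. Its means stayed between 169 and 205 CPM from step 0 to step 4 and then decreased to 65.5 ± 13.5 at step 8. *Egr3* lay between 133 and 148 CPM up to step 4 and reached 208 ± 8.69 at step 6. *Nab2* went from 28.7 ± 3.95 CPM at step 1 to 59.3 ± 16.8 at step 6. *Nab1* was highest at step 0 (67.7 ± 7.18) and lowest at step 2 (41.9 ± 4.59), the step at which *Egr2* was highest.

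**Figure D3:**
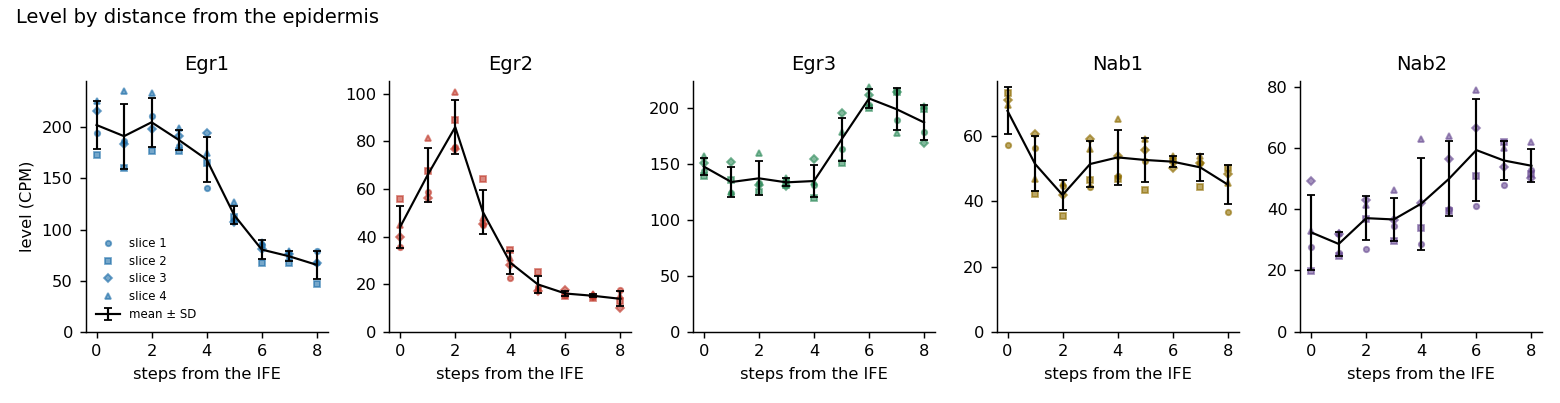
Level (CPM, vertical axis from 0) against the number of steps from the nearest IFE spot (horizontal axis), with small symbols for the 4 slices and a black line for the mean ± SD. *Egr2* peaks at step 2, *Egr1* is level to step 4 and then lower, *Egr3* and *Nab2* are higher at steps 5 to 8 than near the surface, and *Nab1* is highest at step 0.

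Between steps 1 and 4, 42.3% of 12394 genes were called (20.3% higher and 22.0% lower at step 1). *Egr2* was higher at step 1 by 1.04 ± 0.14 on the log2 scale (edgeR adjusted p = 1.2e-07) and *Nab2* lower by a log2 fold change of -0.67 ± 0.19 (adjusted p = 0.0049). The *Nab2* call was lost without slice 4 (-0.48, adjusted p = 0.078), at 5500 UMIs per spot (-0.42, adjusted p = 0.12) and with library size alone as the scaling (-0.53, adjusted p = 0.064). That scaling moved the median gene from -0.06 to 0.09. *Egr1* (0.04 ± 0.11), *Egr3* (-0.16 ± 0.09) and *Nab1* (-0.19 ± 0.11) were not called, with edgeR adjusted p-values between 0.15 and 0.79. The *Egr2* difference exceeded that of *Egr1* by 0.96, 1.03, 1.09 and 0.95 in slices 1 to 4 (1.01 ± 0.06, exact permutation p = 0.125). From step 0 to step 1, where 14.2% of genes were called (6.16% higher and 8.04% lower), *Egr2* rose by 0.56 ± 0.15 (edgeR adjusted p = 0.0077) and *Nab1* had a log2 fold change of -0.41 ± 0.12 (adjusted p = 0.014). The *Egr2* call was lost without slice 1 (0.50, adjusted p = 0.084) or slice 4 (0.46, adjusted p = 0.12), and the *Nab1* call without slice 2 (-0.28, adjusted p = 0.18) or slice 4 (-0.34, adjusted p = 0.16). At 5500 UMIs per spot neither was called (0.52, adjusted p = 0.064, and -0.48, adjusted p = 0.074), nor was *Nab1* with library size alone (-0.37, adjusted p = 0.06).

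Regions and steps were then crossed, a view added after the levels had been seen. Outer root sheath spots at step 2 had *Egr2* levels of 85.2, 92.5, 72.0 and 122.6 CPM (93.1 ± 21.5, 198 spots), within 1 SD of upper HF spots at step 1 (89.6 ± 18.7, 254 spots). At step 3 outer root sheath spots had 61.5, 66.5, 47.1 and 53.6 CPM (57.2 ± 8.57, 286 spots). The log2 ratio of step 2 over step 3 was 0.69 ± 0.34 for *Egr2*, above 0 in 4 of 4 slices, against 0.04 ± 0.18 for *Egr1* and -0.05 ± 0.29 for *Egr3*. *Nab1* had a ratio of -0.63 ± 0.22, below 0 in 4 of 4 slices, from 38.7 ± 9.59 to 58.8 ± 7.70 CPM. Exact sign-flip permutation tests gave p = 0.125 for *Egr2* and *Nab1*, again the smallest possible value. In dermis spots *Egr2* was also higher at step 2 (78.7 ± 17.0 CPM) than at step 1 (59.1 ± 9.52) in 4 of 4 slices, and *Egr1* in 1 of 4. Among spots given the same region, the *Egr2* level thus varied with distance from the IFE, over steps at which the slices did not share a direction for *Egr1*. Such spots still mix tissues. The 7 upper HF markers summed to 10720 CPM in dermis spots, against 36530 in upper HF spots. The 6 outer root sheath markers summed to 10630 CPM in dermis spots, against 18210 in outer root sheath spots. Whether this mix changed with the step was not tested.

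Depth per spot differed between regions, with medians of 8627.5 UMIs in upper HF, 8572 in IFE, 24286 in matrix and 14097 in muscle spots. Every spot with at least 5500 UMIs was therefore also reduced at random to that depth, which left 5848 spots. Shallower spots were dropped, among them 84 of 344 upper HF, 92 of 542 IFE and 5 of 463 matrix spots. Shares at this depth thus describe the deeper spots of a region. At this depth an *Egr2* UMI was found in 29.9%, 33.9%, 43.5% and 49.2% of upper HF spots (39.1% ± 8.83) and in 18.5%, 24.1%, 16.1% and 27.0% of IFE spots (21.4% ± 5.03). All upper HF shares were above all IFE shares. Outer root sheath spots had 29.9% ± 5.73, matrix spots 8.10% ± 1.32 and muscle spots 7.64% ± 2.23. Without the reduction the shares were 55.8% ± 10.7 in upper HF, 32.6% ± 3.28 in IFE and 18.6% ± 2.27 in muscle spots. Free RNA can add UMIs to any spot, and its amount could not be measured for these genes because no region is known to lack them. Markers of other regions were found in IFE spots. The 7 inner root sheath markers summed to 15150 CPM there, against 71110 in inner root sheath spots, and the 8 muscle markers to 1545, against 36100 in muscle spots. How much of this was free RNA and how much came from cells in the spots was not tested.

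For the other genes the differences between the regions named here had the same direction at matched depth. *Egr1* was found in 70.8% ± 6.42 of upper HF, 65.8% ± 3.37 of IFE, 29.4% ± 6.56 of matrix and 31.7% ± 4.69 of muscle spots. *Egr3* was found in 74.1% ± 2.03 of matrix spots against 49.1% ± 2.66 of upper HF spots. *Nab1* was found in 33.7% ± 3.88 of IFE and 23.5% ± 6.22 of upper HF spots, and *Nab2* in 33.6% ± 1.87 of matrix and 15.8% ± 6.36 of upper HF spots. Unthinned muscle spots, which were deeper, had *Nab2* in 41.1% ± 4.02 against 20.2% ± 4.49 at 5500 UMIs.

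Within regions, the genes were next compared spot by spot. For each pair, the odds of finding both genes in the same spot at 5500 UMIs were computed with regions as strata. Differences between the named regions thus do not enter. Spots without a region formed a stratum of their own, which mixes positions, so a pattern shared between regions can still enter through it. *Egr2* and *Egr1* were found together in 626 of 5848 spots, with odds ratios of 1.03, 1.62, 0.96 and 1.37 in slices 1 to 4 (geometric mean 1.22, exact permutation p = 0.38). This mean ranked 679 among 8819 genes compared with *Egr2*, whose median was 1.01. The mean odds ratio of *Egr2* was 1.02 with *Egr3*, 0.94 with *Nab1* and 0.98 with *Nab2*, each with slices on both sides of 1. With regions ignored, the odds ratio with *Egr1* was 1.57, and with all UMIs and strata of region and depth it was 1.49, above 1 in 4 of 4 slices under each. In a different random draw at 5500 UMIs it was 1.24, above 1 in 4 of 4 slices. With Leiden clusters as strata it was 1.11 and at 3000 UMIs 1.26, above 1 in 2 of 4 slices under each. For *Egr2* with *Egr3* or a corepressor the slices ranged from 0.82 to 1.25 at 5500 UMIs. With 4 slices no exact permutation p can fall below 0.125, so whether these odds ratios differ from 1 could not be decided.

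None of the 10 pairs passed (lowest adjusted exact p = 0.42). *Egr1* and *Nab1*, *Egr3* and *Nab2*, and *Nab1* and *Nab2* had odds ratios at or above 1 in 4 of 4 slices, with means of 1.10, 1.11 and 1.16. A different random draw gave 0.94 for *Egr1* and *Nab1*, 1.14 for *Egr3* and *Nab2* and 1.00 for *Nab1* and *Nab2*, so that the direction of the first pair turned with the draw. *Egr1* with *Nab2* had 0.79, 0.76, 1.05 and 0.73 (mean 0.82), but 0.96 with the different draw and 1.11 with all UMIs and strata of region and depth. *Egr1* was found with the immediate-early gene *Fos* at a mean odds ratio of 1.53, rank 15 of 8827 genes at the same depth. The other immediate-early genes in this ranking had lower mean odds ratios with *Egr1*, from 1.02 to 1.24.

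**Figure D4:**
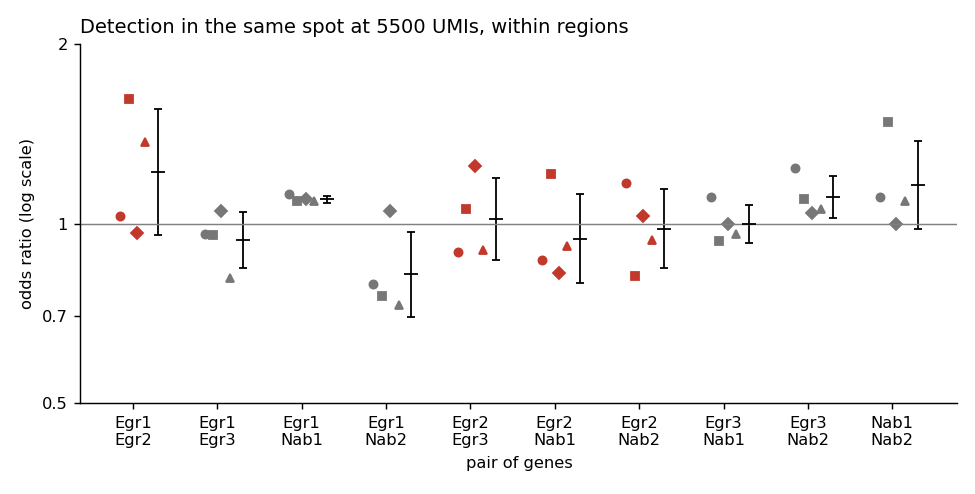
Odds ratio (log scale) of finding both genes of a pair in a spot reduced to 5500 UMIs, with regions as strata, for the 10 pairs. Symbols are the 4 slices, pairs with *Egr2* are red, and black marks are the geometric mean with 1 SD of the log2 values. The *Egr2* pairs lie on both sides of 1.

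Likeness of pattern was described by Pearson's correlation of log2(CPM + 5) over the 10 regions, whose points share slices and depth, so no p is given. *Egr2* and *Egr1* had r = 0.90, and *Egr1* ranked 301 among 11362 genes by likeness to *Egr2*. *Nab1* had r = -0.07 with *Egr2*, *Egr3* -0.56 and *Nab2* -0.79, and *Nab2* ranked 10859. *Egr3* and *Nab2* had r = 0.71 with each other. The genes most like *Egr2* were *Actg1*, *Slc5a5* and *Arpc5* (r of 0.99, 0.99 and 0.98). *Gramd3* and *Capg* were among those most like *Egr1* (0.98 and 0.98). *Pus10*, *Ppp4r3b* and *Senp1* were most like *Egr3* (0.96, 0.96 and 0.95), *Plcxd1*, *Ago1* and *Kif21a* most like *Nab1* (0.88, 0.88 and 0.87), and *Memo1*, *Cfl1* and *Pin4* most like *Nab2* (0.995, 0.989 and 0.986).

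The other immediate-early genes give a measure of whether *Egr2* moved with this class as a whole. Over the regions, the median r of the 14 tested immediate-early genes was 0.66 with *Egr2* and 0.73 with *Egr1*, against -0.48 with *Egr3* and -0.70 with *Nab2*, and all 14 were above 0 for *Egr1* and *Egr2*. The transcription coregulator *Btg2*, with r = 0.96, was the closest to *Egr2*. Between upper HF and IFE spots, however, the class did not rise together. Of 14 tested, *Btg2* (log2 1.25 ± 0.14) and *Ier3* (0.71 ± 0.18) were higher in upper HF spots. Lower in upper HF spots were *Fosb* (-2.51 ± 0.36), *Socs3* (-1.99 ± 0.50), *Fos* (-1.71 ± 0.17) and the phosphatase gene *Dusp1* (-1.35 ± 0.16), and 8 were not called, beside 6.93% of all genes higher and 8.09% lower. The median was -0.30, against -0.03 over all genes.

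Between upper HF and outer root sheath spots 7 of these 14 genes were higher in upper HF spots, led by *Dusp1* (1.84 ± 0.20) and *Fosb* (1.45 ± 0.55), and 2 were lower, *Socs3* (-2.25 ± 0.46) and *Ccn1* (-0.79 ± 0.23), beside 12.6% of all genes higher and 9.54% lower. DESeq2 called 6 of them higher. The median was 0.44, against -0.01 over all genes. Against matrix spots 12 of 14 were higher in upper HF spots and 2 were not called, beside 34.4% of all genes higher. *Egr2* had the direction of *Fos*, *Fosb* and *Dusp1* in the outer root sheath and matrix comparisons and the opposite direction in the IFE comparison, and these comparisons share the upper HF spots. From step 0 to step 1, 1 of 15 tested genes rose (*Btg2*, 0.59 ± 0.11) and 6 fell, beside 6.16% and 8.04% of all genes, with *Fosb* (-2.09 ± 0.26) and *Fos* (-1.70 ± 0.14) the lowest.

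**Figure D5:**
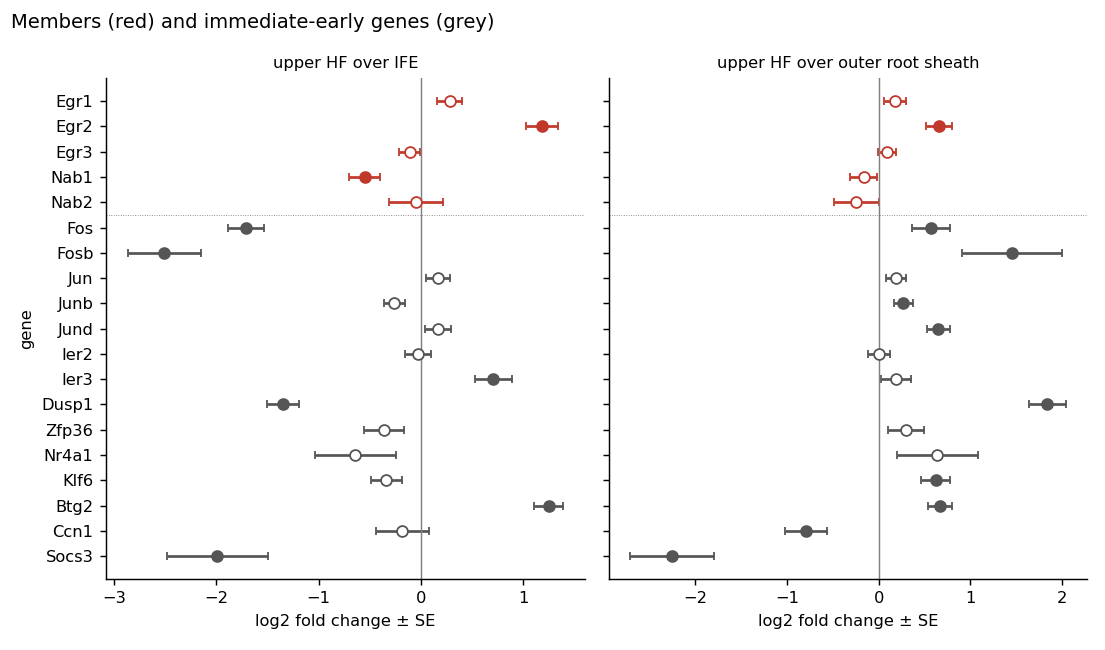
Log2 fold change ± SE from edgeR (horizontal axis, whose range differs between panels) for the 5 EGR and NAB genes in red and 14 immediate-early genes in grey, for upper HF over IFE spots (left) and upper HF over outer root sheath spots (right). Filled symbols passed an adjusted p of 0.05. *Egr2* is above 0 in both panels, whereas *Fos*, *Fosb* and *Dusp1* are below 0 on the left and above 0 on the right.

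Of 11 tested genes that act upstream of EGR transcription, for serum response factor, its cofactors and the ERK cascade, *Mapk3*, which encodes ERK1, was called between upper HF and IFE spots (0.48 ± 0.09), beside 15.0% of all genes. Against outer root sheath spots *Mapk3* was higher (0.52 ± 0.09), and *Map2k1* (-0.64 ± 0.18) and *Egfr* (-0.61 ± 0.12) were lower, 3 of 11 beside 22.1% of all genes. Of 7 tested ERK feedback genes, *Spry2* was higher in upper HF than in IFE spots (1.38 ± 0.37), beside 6.93% of all genes. The other 6 were not called there. At step 1 *Spry2* was higher than at step 4 (1.07 ± 0.25), beside 20.3% of all genes. The other 6 were lower at step 1, beside 22.0% of all genes, with *Etv4* (-2.06 ± 0.19) and *Dusp6* (-1.33 ± 0.16) the lowest. DESeq2 called 5 of them lower. The median of these 7 genes was -0.92, against -0.06 over all genes.

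Of the 13 NuRD genes tested, whose products NAB proteins recruit, none was called between upper HF and IFE spots, beside 15.0% of all genes (edgeR with Benjamini-Hochberg adjustment, median -0.04 against -0.03 over all genes). None was called between upper HF and outer root sheath spots by edgeR, beside 22.1% of all genes (median -0.13 against -0.01). At an unadjusted p under 0.05 there was 1 gene in each comparison, and DESeq2 called none in either. Against matrix spots 10 of 13 were lower in upper HF spots and none was higher, beside 31.1% of all genes lower. *Rbbp7* (-1.36 ± 0.11) and *Hdac2* (-1.26 ± 0.13) had the lowest values and *Chd4* had -0.47 ± 0.10. Their direction in this comparison was that of *Nab2* and *Egr3*. Matrix spots were set by a list that includes proliferation genes.

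Of 8 listed partners and regulators of EGR2, the octamer factor gene *Pou3f1* alone was called between upper HF and IFE spots. It was lower in upper HF spots (-0.67 ± 0.16), beside 15.0% of all genes called. *Nfatc1* (2.37 ± 0.27), *Nfatc2* (2.20 ± 0.30) and *Zeb2* (1.35 ± 0.23) were higher in upper HF than in outer root sheath spots, 3 of 8 beside 12.6% of all genes. Between steps 1 and 4 the same 3 genes were higher at step 1 (3.17 ± 0.24, 2.61 ± 0.30 and 1.74 ± 0.24), beside 20.3% of all genes. *Yap1* was lower (-0.44 ± 0.13), beside 22.0% of all genes. *Sox10*, the Schwann cell factor that acts with EGR2, was not called in these comparisons (0.51 ± 0.54, 1.16 ± 0.54 and 0.62 ± 0.35).

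Markers of other cells a spot can hold differed between regions too. The 8 Schwann cell markers summed to 557 CPM (324 to 770 by slice) in dermis spots, 259 (234 to 312) in upper HF spots, 165 (152 to 174) in IFE spots and 348 (312 to 391) in muscle spots. In upper HF spots 7 of the 8 had at least 3 UMIs and none was at 0. Dermis spots, with the highest Schwann cell sum, had the next highest *Egr2* level after upper HF spots, and muscle spots, with the next highest sum, had the lowest. The 10 immune markers summed to 1658 CPM (1516 to 1797) in IFE, 1041 (819 to 1308) in upper HF and 325 (271 to 422) in outer root sheath spots. The 5 melanocyte markers summed to 1203 CPM (868 to 1543) in matrix and 158 (118 to 222) in upper HF spots, so that they were high where *Egr3* and *Nab2* were high. The part of these cells in the levels of the EGR and NAB genes was not tested.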

How the data were processed

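The authors deposited UMI counts per gene and spot for 4 slices, made with Space Ranger 2.0.1 per the file headers, without normalization. The build mm10 is named in the submitters' processing notes, and gene positions are from GENCODE M21 on GRCm38. The genes and lists were chosen with earlier results of these data known.

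Spots with at least 250 genes were kept. A spot took the marker list with the highest mean z score (limited to 5) of log(1 + 10000 × UMI share) where this was at least 0.5 and led by 0.2. UMI sums per slice and region (or step 0 to 8) were tested in R 4.3.3 by the quasi-likelihood test of edgeR 4.0.16, in a fit over all regions, with TMM scaling, genes kept by filterByExpr and a call at an adjusted p under 0.05. DESeq2 1.42.0 was an alternative. Sign-flip tests over slices used scipy 1.17.1 and are exact and two-sided. Odds ratios are Mantel-Haenszel estimates, ranked among genes in at least 5% of thinned spots. Leiden clusters (scanpy 1.11.5) were made without the EGR and NAB genes. No doublet caller was run, since spots hold several cells.

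Named genes are the 5 EGR and NAB genes, up to 4 called genes of each list (the 2 highest and 2 lowest), and the 3 genes most like each member, of which 1 is not reported here. *Fos*, *Dusp1*, *Chd4*, *Egfr*, *Sox10*, *Zeb2*, *Ccn1*, *Stat6*, *Nemp1* and *Gm16229* were added where outside that rule, after their values were seen. Older list symbols were matched through RefSeq synonyms (*Ccn1*, *Mrtfa* and *Mrtfb*).

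On simulated data for upper HF over IFE, 67% of 200 genes given a log2 fold of 1 were recovered among 11244 genes, and 3.6% of calls were false. For step 1 over step 4 these were 77.5% among 12220 and 7.19%. Simulated counts were drawn independently with a spread set by the fit, without the correlation within slices given below. The rates hold for such counts alone. Slice numbers pair the sums, since those of a slice were cut from shared sections. The main edgeR fit did not include the slice, so its p-values are not paired, and the slice as a block was an alternative. With the block, 2058 genes in place of 1706 were called for upper HF over IFE. Deviations within slices 1 to 4 had mean correlations of 0.15, 0.09, 0.06 and 0.09 across 11363 genes.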

Additional observations from a re-analysis of the deposited data

Results flagged for a closer look

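Of 95 groups of 4 slices, 3 had a slice set apart from the other slices by more than Dixon's 95% limit, where chance alone gives about 1 in 20. *Egr3* in dermis spots of slice 2 was at 105.3 CPM, below the other slices. *Nab1* in matrix spots of slice 1 was at 46.9 CPM, also below. *Egr2* at step 3 in slice 2 was at 64.1 CPM, above.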

How the results depend on the processing

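The *Egr2* calls between upper HF and IFE, outer root sheath, muscle and matrix spots and between steps 1 and 4 held under every alternative run, with log2 values of 1.05 to 1.40, 0.52 to 0.77, 2.58 to 2.92, 2.44 to 2.76 and 0.95 to 1.29. No Leiden cluster was named upper HF, so that alternative gave values for IFE over muscle alone, where *Egr3* was called at -0.19 (adjusted p = 0.025), *Nab2* at -0.65 and *Nab1* at 0.39. With the slice as a replicate block, *Egr1* in upper HF over IFE spots was called at 0.29 and *Nab2* in IFE over muscle spots at -0.36, and no other call of these genes changed. *Nab2* was also called there at 5500 UMIs per spot (-0.62) and without the filter on low counts (-0.38). In upper HF over IFE spots *Nab1* was not called at 5500 UMIs per spot (-0.54), and leaving out a slice gave -0.86 to -0.37. *Nab2*, not called there, was 0.26 at 5500 UMIs per spot, 0.10 with a score margin of 0.5, 0.07 with scores from thinned spots and -0.13 to 0.03 with a slice left out. Leaving out a slice gave *Nab1* -0.48 (called, without slice 1) to 0.04 against outer root sheath, -0.38 (called, without slice 1) to 0.06 against matrix, -0.15 to 0.20 against muscle and -0.45 to 0.03 against sebaceous gland spots. It gave *Egr3* -0.05 to 0.01 against muscle spots, where *Egr3* was also 0.03 with library size alone and 0.01 with scores from thinned spots and *Nab1* was -0.10 with a margin of 0.5. Between steps 1 and 4, *Egr1* was -0.04 at 5500 UMIs per spot and -0.05 to 0.14 with a slice left out. *Nab2* was -0.53 with library size alone, -0.42 at 5500 UMIs and -0.70 to -0.48 with a slice left out. Between steps 1 and 0 *Nab2*, not called, was 0.18 at 5500 UMIs and 0.02 with scores from thinned spots. The *Egr2* difference from *Egr1* in upper HF over IFE spots was 1.09 with a margin of 0.5, that from *Egr3* 1.66, and that from *Nab2* 0.93 at 5500 UMIs and 1.02 with margin 0. The step difference from *Egr1* was 0.90 with a margin of 0.5. The log2 odds ratio of *Egr1* and *Egr2* was 0.65 with no strata, that of *Egr2* and *Nab2* was 0.29 at 3000 UMIs, and that of *Egr1* and *Nab1* was -0.02 without thinning, -0.24 at 3000 UMIs and -0.10 with a second seed. The cause of these changes was not tested.

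Thinning to 5500 UMIs, which leaves fewer genes to test, gave 1057 calls in place of 1706 for upper HF over IFE, 1509 in place of 2511 over outer root sheath, 486 in place of 862 over sebaceous gland, 3819 in place of 5828 over muscle and 4905 in place of 7439 over matrix spots. For step 1 it gave 1131 in place of 1761 over step 0 and 3340 in place of 5243 over step 4. Without slice 1 the sebaceous gland count was 566. Library size alone gave 3209 higher and 1716 lower genes in place of 2513 and 2730 between steps 1 and 4, and 308 and 536 in place of 430 and 432 over sebaceous gland spots.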
